A study of Mus musculus with 6 samples.

Results

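The S100 and annexin gene families were followed in mouse spinal cord 3 days after injury. The members were all 31 genes of the 36629 listed whose symbol begins with S100a or Anxa followed by a digit, together with S100b and S100g. They comprised 18 S100 and 13 annexin entries, among them the pseudogene S100a11-ps and the antisense transcript Anxa11os. Bulk RNA-seq was made from polyadenylated RNA of cord segments T8 to T12 of C57/BL6 mice aged 3 to 5 weeks, with no transgene or drug named in the labels. In all animals the T9 and T10 vertebrae were opened from the back (laminectomy). The sham group (3 libraries) had the laminectomy only and the SCI group (spinal cord injury, 3 libraries) had the cord crushed as well, for 5 seconds with a vascular clip of 60 g force. The labels do not say whether a library came from 1 animal or from several, and p-values therefore measure the spread between these libraries, which may be technical.

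S100 proteins are small calcium sensors of the EF-hand type that work mostly as dimers, inside cells as partners of enzymes and cytoskeletal proteins and outside cells as danger signals. Annexins are a separate family that binds acidic phospholipids of membranes in the presence of calcium and takes part in membrane repair, vesicle traffic and the control of inflammation. The families meet in the complex of S100a10 (p11) with Anxa2, which anchors plasminogen activation at the cell surface. In the nervous system S100b is best known from astrocytes and other glia, while S100a8 and S100a9 form calprotectin, an abundant protein of the neutrophil cytosol.

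The start regions of 4 members and the gap between 2 others are shown: S100a11 and Anxa2 hold matches to the AP-1 motif, S100a8 and S100a9 form a pair, and S100a1 and S100a13 share the gap. RefSeq (GRCm38.p6) gave windows for 23 of the 31 members, and each window was read up to the start of the gene as the deposited files place it. They are printed 5′ to 3′ on the strand of the gene, except the gap between S100a1 and S100a13, which is on the plus strand. Capitals mark matches, on either strand, to the AP-1 motif TGANTCA, the C/EBP motif TTGCNNAA, the STAT motif TTCNNNGAA or the ETS motif GAGGAA. No match overlapped another.
Anxa2, chr9:69453433-69453619, plus strand: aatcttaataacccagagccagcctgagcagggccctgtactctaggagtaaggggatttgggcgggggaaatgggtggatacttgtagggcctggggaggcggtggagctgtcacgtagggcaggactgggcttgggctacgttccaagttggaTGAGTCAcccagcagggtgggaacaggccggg
S100a11, chr3:93520246-93520487, plus strand: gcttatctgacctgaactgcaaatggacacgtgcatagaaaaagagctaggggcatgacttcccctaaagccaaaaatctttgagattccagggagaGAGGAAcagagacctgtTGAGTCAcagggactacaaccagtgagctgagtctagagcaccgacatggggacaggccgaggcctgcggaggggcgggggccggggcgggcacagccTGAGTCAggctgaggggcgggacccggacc
S100a8, chr3:90668821-90668977, plus strand: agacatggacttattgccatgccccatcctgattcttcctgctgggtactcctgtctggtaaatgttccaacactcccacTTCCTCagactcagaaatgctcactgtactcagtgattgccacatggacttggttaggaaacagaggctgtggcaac
S100a9, chr3:90695722-90695971, minus strand: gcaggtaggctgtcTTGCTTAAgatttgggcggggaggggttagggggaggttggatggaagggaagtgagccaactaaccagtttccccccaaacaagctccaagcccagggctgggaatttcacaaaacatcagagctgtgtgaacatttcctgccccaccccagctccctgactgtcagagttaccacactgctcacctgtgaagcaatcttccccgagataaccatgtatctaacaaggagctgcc
S100a1-S100a13 gap, chr3:90514393-90514434: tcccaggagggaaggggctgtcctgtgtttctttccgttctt

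In the full 250-base windows before the RefSeq starts, S100a11 held 2 matches to the AP-1 motif and Anxa2 held 1. S100a8 held 2 ETS matches there, 1 of them past the end of the printed stretch. AP-1 matches were found for 5 of the 23 members with a window, the others being S100a16, S100a7l2 and Anxa10, and in 6.75% of 32851 windows of the same length over all genes. C/EBP matches were found for 5 members (9.56% of all windows), ETS matches for 7 (23.3%) and a STAT match for 1 (7.02%). Some members had more than 1 window (30 windows in all), so counts of members and shares of windows are unlike measures. A match is a description of the letters only, and members with an AP-1 match ranged from S100a11, among the highest in injured cord, to S100a7l2, listed at 0 in 5 of the 6 libraries.

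Levels are the authors' FPKM, a fragment count divided by gene length and by library size, so that levels of different genes can be set side by side. Values after ± are SDs over 3 libraries. The total FPKM was 716215 to 734791 per library, and the number of reads behind it is unknown. Haemoglobin genes took 0.109% to 0.126% of the FPKM in sham cord. In SCI replicates 1, 2 and 3 the share was 0.656%, 6.16% and 0.211%. Genes of cord neurons, astrocytes and oligodendrocytes were above 0 in all 6 libraries. Genes of dorsal root ganglion neurons, which lie outside the cord, summed to 207 FPKM in SCI replicate 3. The sum was 157 to 187 in sham cord and 79.2 and 53.3 in SCI replicates 1 and 2. Of these genes, Avil was at 17.3 FPKM in SCI replicate 3 against 0.15 to 0.50 in the other 5. Prph (74.5) was below every sham library there, and Pou4f1 (3.75) was below sham replicates 1 and 3. Skeletal muscle genes summed to 354 FPKM in SCI replicate 3, against 8.91 to 86.8 in the others. In sham replicate 2 the Schwann cell genes (545 against 1595 and 1632 FPKM in the other sham libraries) and the fibroblast and meningeal genes (58.2 against 127 and 121) were lower.

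Most S100 genes that could be tested rose in the injured cord, while S100b fell and S100a7a did not pass. Of the 18 entries, 11 reached 1 FPKM in at least 3 libraries and were tested, and 9 of these rose, 1 fell and 1 did not pass the test. The test was limma on log2(FPKM + 1), with Benjamini-Hochberg adjustment over 17435 genes and a threshold of 0.05. Of all genes tested 57.5% passed, 26.7% as higher and 30.8% as lower in SCI. The median log2 change of the S100 genes tested was 2.35, beside −0.08 for all genes tested. A log2 rise of at least 2 was seen in 6 of the 11, beside 3.48% of all genes. Of the 9 annexins tested among 13 entries, 8 rose and 1 fell, with a median log2 change of 0.95. A log2 rise of at least 2 was seen in 3 annexins. None of the 20 genes tested entered through the injured libraries alone: 19 were at 1 FPKM or more in all 6 libraries, and S100a7a straddled that level in both groups. In 17 of the 20 every SCI library lay above every sham library and in 2 below, beside 67.6% of all genes tested without overlap in either direction and 30.7% with SCI above.

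**Figure D1:**
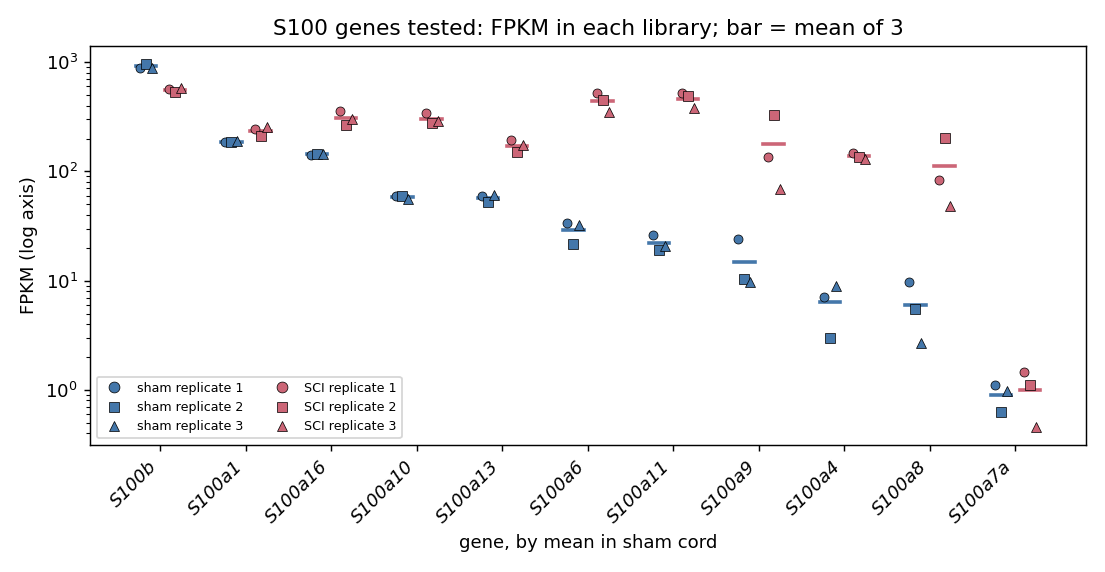
FPKM of the 11 S100 genes tested, on a log axis, in each sham (blue) and SCI (red) library, with symbols for the replicate and a short bar for the mean of 3. S100b is the only gene whose SCI libraries all lie below the sham libraries, the points of S100a7a overlap, and the other 9 genes lie higher in SCI.

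Summed over the family, S100 transcripts took 1435, 1467 and 1422 FPKM in the sham libraries and 3118, 3040 and 2583 in the SCI libraries. The mean sum was 2.02-fold higher in SCI, with no overlap between the groups (exact permutation p = 0.10, two-sided, the smallest that 3 against 3 can give). The log2 difference of the sums was 1.01, and without S100b, the most abundant member, it was 2.15. Annexin transcripts summed to 418, 427 and 438 FPKM in sham and 842, 968 and 830 in SCI libraries, a 2.06-fold difference (exact permutation p = 0.10, two-sided).

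The make-up of both pools differed between the groups. S100b made up 63.4% ± 1.99 (SD, n = 3) of the S100 FPKM in sham cord and 19.4% ± 2.63 in injured cord. S100a11 went from 1.53% ± 0.271 to 15.8% ± 0.979 and S100a6 from 2.04% ± 0.499 to 15.1% ± 1.51. In the annexin pool Anxa6 went from 37.9% ± 2.52 to 15.5% ± 2.41, and Anxa2 from 9.15% ± 0.983 to 25.7% ± 3.47. Anxa5 kept the largest share in both groups, at 41.5% ± 2.40 and 39.0% ± 1.50.

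**Figure D2:**
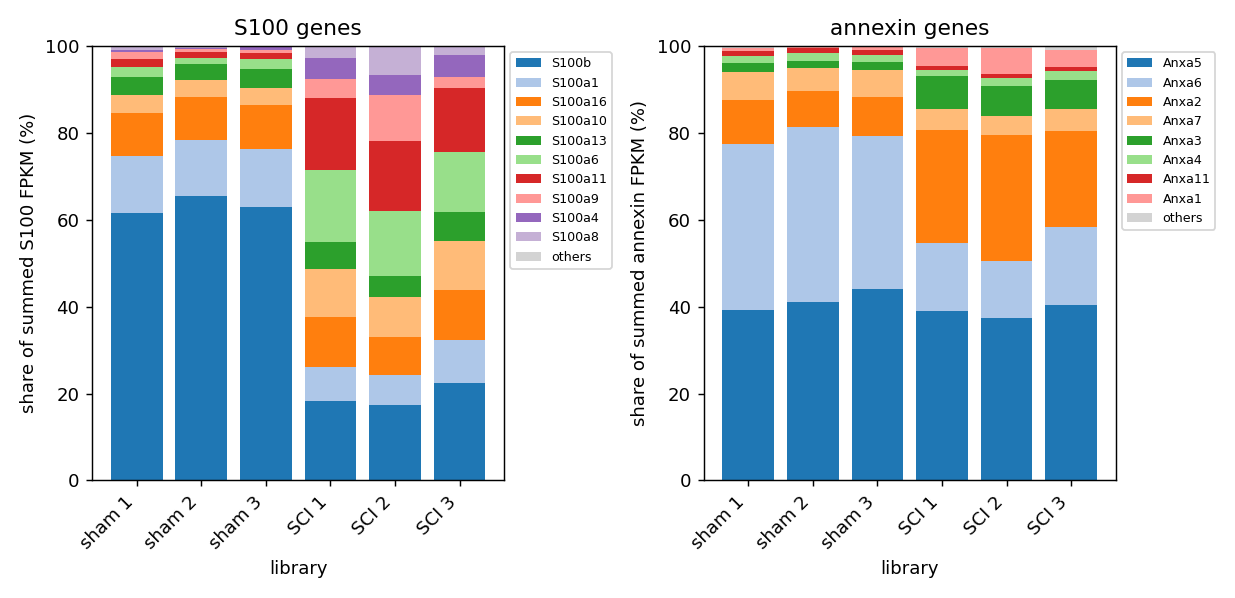
Share of the summed S100 FPKM (left) and of the summed annexin FPKM (right) taken by each gene, in percent, 1 stacked bar per library. S100b takes 61.7% to 65.5% of the S100 sum in sham and 17.4% to 22.4% in SCI libraries, and Anxa2 takes 22.1% to 29.0% of the annexin sum in SCI libraries.

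The order of the genes within the families shifted with these levels. In sham cord S100b, S100a1 and S100a16 led the S100 genes, each above the next in every library, followed by S100a10 and S100a13, whose libraries overlapped. In injured cord S100b was still the most abundant S100 gene in all 3 libraries, followed within every library by S100a11 and S100a6. In SCI replicates 1 and 3, S100a16 and then S100a10 came next. In SCI replicate 2, S100a9 came next at 325 FPKM, above S100a10 at 276 and S100a16 at 267. The ranges over libraries of S100a11 and S100a6, and of S100a6 and S100a16, overlapped. Among annexins Anxa5 was above Anxa6 within each sham library, although their ranges over the sham libraries overlapped. In injured cord the order was Anxa5, Anxa2 and Anxa6, with no overlap between neighbours.

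S100a10 and Anxa2, the subunits of the plasminogen-binding complex, both rose. S100a10 stood at 60.1, 59.8 and 55.7 FPKM in the sham libraries, against 345, 276 and 290 in the injured ones. Anxa2 had sham values of 42.6, 35.2 and 39.5 and injured values of 219, 281 and 184 FPKM. All SCI libraries were far above all sham libraries for both genes, and within the SCI group replicate 2 was the highest for Anxa2 and the lowest for S100a10. The means went from 58.5 ± 2.42 to 304 ± 36.6 FPKM for S100a10, a 5.19-fold rise, and from 39.1 ± 3.72 to 228 ± 49.3 for Anxa2, a 5.83-fold rise (SD, n = 3 per group). In limma the log2 change was 2.35 for S100a10 (SE 0.099, adjusted p = 1.2e-05) and 2.49 for Anxa2 (SE 0.16, adjusted p = 3.4e-05). Because the tissue was measured in bulk, more or fewer cells of a type and more or less RNA per cell cannot be told apart for these or any other members.

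The ratio of S100a10 to Anxa2 FPKM within a library was 1.41, 1.70 and 1.41 in sham and 1.58, 0.983 and 1.58 in SCI libraries. Transcripts of S100a10 thus outnumbered those of Anxa2 per length in every library except SCI replicate 2. The ratios of the groups overlapped, and the difference of −0.16 on the log2 scale was smaller than the spread between libraries (exact permutation p = 0.80, two-sided). Without SCI replicate 2 the difference was 0.072. On chromosome 3 of GRCm38, S100a11 (93520488 to 93526287) and S100a10 (93555080 to 93564643) are neighbours on the plus strand, with 28792 bases and no other listed gene between them. Anxa2 is on chromosome 9 (69453620 to 69491795, plus strand).

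Partners of this complex went in both directions. Of the genes of plasminogen activation, 4 of 4 tested rose. Plaur, the receptor of the activator urokinase, went from 0.720 ± 0.238 to 29.6 ± 8.88 FPKM (log2 change 4.12), and Plau, the gene of urokinase, from 2.01 ± 0.119 to 40.6 ± 24.8 (3.63). Plg itself, the gene of plasminogen, which is made mainly in liver, was at 0.04 to 0.22 FPKM in all libraries and was not tested. Of 7 tested genes whose products are carried to the membrane by S100a10 or bind it, 1 rose and 5 fell. The scaffold Ahnak rose from 16.5 ± 6.50 to 34.6 ± 5.30 FPKM (log2 change 1.09, limma adjusted p = 0.015), and was at 9.02 in sham replicate 2 against 20.5 and 20.0 in the other sham libraries. The potassium channel Kcnk3 fell from 15.4 ± 1.10 to 6.53 ± 1.17 (−1.13). The serotonin receptor gene Htr1b, with a log2 change of −1.01, and the ion channel gene Asic1 (−1.08) were lower too. In the same libraries 7 of 8 tested neuronal genes fell, and their part in these falls was not tested.

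S100a8 and S100a9, the subunits of calprotectin, rose together and varied more between the injured libraries than any other member that passed. S100a8 measured 9.67, 5.55 and 2.68 FPKM without injury and 84.2, 204 and 48.6 FPKM after it. S100a9 stood at 24.1, 10.4 and 9.62 FPKM in the sham libraries, against 136, 325 and 69.1 in the injured ones. Replicate 2 was the highest and replicate 3 the lowest injured library for both genes, and sham replicate 1 was the highest sham library, yet the groups did not overlap. The coefficient of variation within the SCI group was 72.4% for S100a8 and 75.2% for S100a9. Their log2 changes were 3.90 (SE 0.56, limma adjusted p = 0.0011) and 3.33 (SE 0.56, adjusted p = 0.0022). Without SCI replicate 2 they were 3.35 and 2.75, with both still past the threshold.

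The other genes of neutrophils followed the same order of the libraries. Of 12 genes in the neutrophil list, none of them a member, 9 were tested and 8 rose, while Mmp9 did not pass (log2 change 0.72). Among the injured libraries all 12 peaked in SCI replicate 2, beside 25.5% of all genes tested. This peak was not particular to neutrophil genes. It was shared by 8 of 9 genes of monocyte-derived macrophages, 5 of 7 microglial genes and 6 of 7 fibroblast and meningeal genes. Of Schwann cell genes 5 of 6 peaked there, of red blood cell genes 5 of 5 and of neuronal and oligodendrocyte genes 0 of 8 each. The summed FPKM of the neutrophil list was 19.4 to 27.5 in sham cord. It was 108, 242 and 55.1 in SCI replicates 1, 2 and 3. Of the list, 3 genes were at 0 in some library. The defining marker Ly6g was at 0.49, 0 and 0 FPKM in the sham libraries and at 0.50, 0.93 and 0.19 in the SCI libraries. Its groups overlapped and it was too low to test. Stfa2l1 was at 0 in all sham libraries. Genes of monocyte-derived macrophages, which can also make S100a8 and S100a9, rose in 9 of 9 cases, their sum being 133 to 182 FPKM in sham cord and 1308 to 2234 in injured cord. The part of either cell type, or of the blood in SCI replicate 2, in the rise of S100a8 and S100a9 was not tested.

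**Figure D3:**
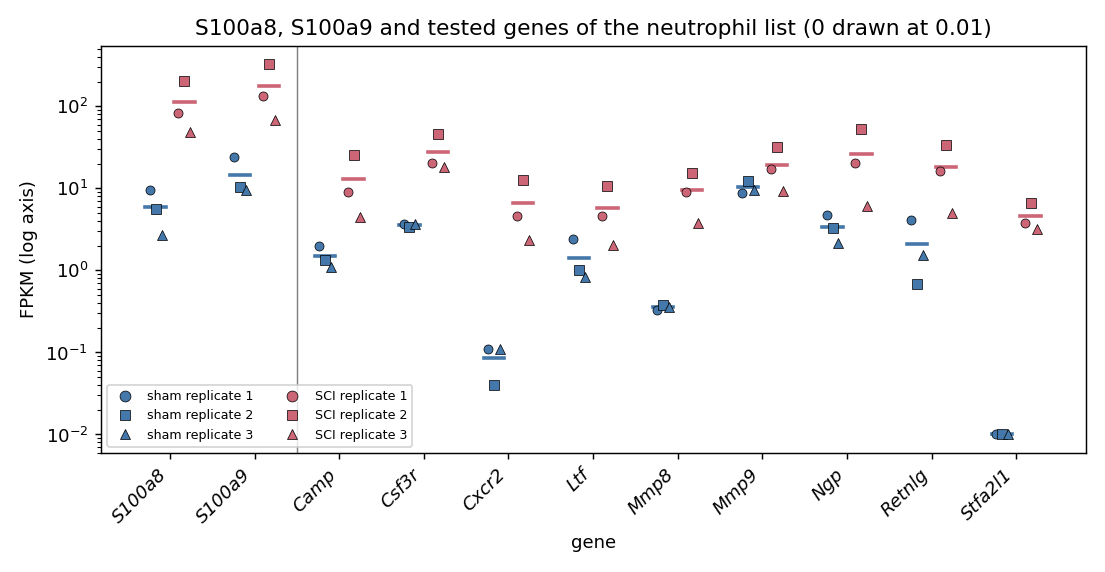
FPKM of S100a8 and S100a9 (left of the line) and of the 9 tested genes of the neutrophil list, on a log axis, for each sham (blue) and SCI (red) library, with bars for the mean of 3 and values of 0 drawn at 0.01. The square of SCI replicate 2 is the highest injured library for every gene shown.

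S100a9 was more abundant than S100a8 in every library. The ratio of S100a8 to S100a9 FPKM was 0.401, 0.532 and 0.279 in sham and 0.620, 0.626 and 0.704 in SCI libraries. The ratio was thus higher in the injured cord with no overlap between the groups (log2 difference 0.73, exact permutation p = 0.10, two-sided, the smallest possible). With sham values of S100a8 at only a few FPKM, the precision of the sham ratios is unknown. The genes point towards each other on chromosome 3, S100a8 from 90668978 to 90670035 on the plus strand and S100a9 from 90692632 to 90695721 on the minus strand, with 22596 bases between them.

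Genes of the receptors that sense these proteins were higher as well. Of 5 genes of S100 receptors, 4 rose. Tlr4, the Toll-like receptor that binds calprotectin, went from 0.527 ± 0.023 to 6.07 ± 1.94 FPKM (log2 change 2.18), and its co-receptor Cd14 from 4.56 ± 1.61 to 70.6 ± 27.2 (3.66). Ager, the receptor for advanced glycation end products, which binds S100b and other family members, ranged from 0.70 to 1.07 FPKM in sham cord and from 1.73 to 1.91 in injured cord (log2 change 0.62, limma adjusted p = 0.0092). Bsg, the most abundant gene of the list, was at 458 ± 31.2 and 406 ± 30.7 FPKM and did not pass (−0.17).

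S100a4, S100a6 and S100a11 rose by 15.1-fold to 21.8-fold. S100a4, or metastasin, a gene of motile mesenchymal cells and of leukocytes, had sham values of 7.02, 3.00 and 9.02 and injured values of 149, 136 and 131 FPKM. S100a6, or calcyclin, measured 34.0, 21.5 and 32.6 FPKM without injury and 520, 454 and 353 FPKM after it. S100a11, or calgizzarin, a binding partner of Anxa1, stood at 26.3, 19.1 and 20.8 FPKM in the sham libraries, against 520, 488 and 381 in the injured ones. For each gene every injured library was more than 10 times the highest sham library, and sham replicate 2 was the lowest sham library. The mean rise was 21.8-fold for S100a4, 15.1-fold for S100a6 and 21.0-fold for S100a11. In limma the log2 changes were 4.35 (SE 0.31, adjusted p = 5.6e-05), 3.88 (SE 0.20, adjusted p = 1.8e-05) and 4.33 (SE 0.15, adjusted p = 7.8e-06). The injured libraries differed little for S100a4, with a coefficient of variation of 6.75%. Fibroblast and meningeal genes, among them Col1a1 and Col3a1, rose in 6 of 7 cases. Their sum was 58.2 to 127 FPKM in sham cord and 323 to 630 in injured cord. Genes of monocyte-derived macrophages rose in 9 of 9 cases, microglial genes in 6 of 7 and endothelial genes in 5 of 7, with 1 endothelial gene lower. The part of any of these cell types in the rise of S100a4 and S100a6 was not tested.

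Some of these genes share sequence with other annotated genes, so that reads could be split between them. In GENCODE M21, 41.1% of the 50-base windows of S100a11 also occur in another gene, among them Gm7665 and Gm12854. Gm7665 ranged from 2.49 to 4.82 FPKM in sham cord and from 19.3 to 29.3 in injured cord. For Gm12854 the ranges were 5.68 to 13.8 and 14.0 to 17.7 FPKM. Of the windows of S100a4, 47.4% occur in Gm42674, which has no value in the files. S100a6, S100a8, S100a9, S100a10, S100a13, S100a16, S100b, Anxa1, Anxa2, Anxa5 and Anxa6 shared no such window with another gene.

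All 9 S100 genes called higher lie on chromosome 3, and S100b, which fell, is on chromosome 10. The risen genes lie among members that were too low to test or did not pass. Whether the untested genes changed cannot be said at such levels. From S100a1 to S100a9, a stretch of 184688 bases on GRCm38 holds 12 members and 2 other listed genes, both too low to test. S100a4 and S100a6 rose 21.8-fold and 15.1-fold, whereas S100a5, which lies between them, was listed at 0 in all 6 libraries. S100a3, just before S100a4, ranged from 0.17 to 0.45 FPKM in sham cord and from 0.29 to 0.59 in injured cord, and S100a2 from 0.12 to 0.27 over all libraries. S100a7a, next to S100a8, had sham values of 1.10, 0.63 and 0.97 and injured values of 1.45, 1.10 and 0.46 FPKM. Its groups overlapped and it did not pass (log2 change 0.05, SE 0.23, limma adjusted p = 0.86). S100a14, better known from epithelia, was at 0 to 0.21 in all libraries.

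S100a1 and S100a13 start 42 bases apart on opposite strands, at the gap printed above, and rose to different degrees. S100a1, a regulator of calcium handling in muscle and neurons, measured 186, 186 and 191 FPKM without injury and 242, 209 and 257 FPKM after it. S100a13, which takes part in the release of growth factors that lack a signal peptide, stood at 59.1, 52.8 and 60.7 FPKM in the sham libraries, against 193, 150 and 173 in the injured ones. Both pairs of groups were apart, by a narrow margin for S100a1 and by a wide one for S100a13. S100a13 rose 2.99-fold (log2 change 1.56, SE 0.11, limma adjusted p = 5.6e-05) and S100a1 1.26-fold (0.32, SE 0.092, adjusted p = 0.019). The ratio of S100a13 to S100a1 FPKM, chosen after the values were seen, was 0.318, 0.283 and 0.318 in sham and 0.798, 0.717 and 0.674 in SCI libraries (exact permutation p = 0.10, two-sided). S100a1 no longer passed in limma when 1 library was left out, unless that library was SCI replicate 2 (adjusted p from 0.053 to 0.064). S100a16, further along the cluster, rose from 142, 146 and 144 FPKM to 355, 267 and 300, a 2.13-fold rise (log2 change 1.08).

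S100b was the S100 gene that fell. It had sham values of 885, 962 and 894 and injured values of 572, 529 and 578 FPKM, with SCI replicate 2 the lowest and no overlap between the groups. The mean was 914 ± 41.8 in sham and 560 ± 26.5 in SCI, a 1.63-fold fall (log2 change −0.71, SE 0.082, limma adjusted p = 4.7e-04). Among glial genes of the same libraries, 5 of 8 tested oligodendrocyte genes fell and 1 rose, and of 8 astrocyte genes 4 fell and 4 rose, among the latter Gfap. Schwann cell genes, which mark another source of S100b, fell in 3 of 6 cases, and their sum was 545 to 1632 FPKM in sham cord and 139 to 344 in injured cord. Of the sham libraries, replicate 2 had the lowest Schwann cell sum and the highest S100b. The part of these cell types in the fall of S100b was not tested. S100b occupies 76253853 to 76261159 of chromosome 10, plus strand, where it overlaps Dip2a on the other strand, at 49.7 FPKM in sham and 36.2 in SCI on average. Whether the quantification used strand is not given in the sources used here.

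Calcium sensors and buffers of the EF-hand type outside the S100 family fell as well. Of 13 listed, 12 were tested and all 12 fell. The calmodulin gene Calm2, the most abundant, went from 1511 ± 71.9 to 865 ± 132 FPKM (log2 change −0.81), and the calbindin genes Calb1 and Calb2 had log2 changes of −1.43 and −1.37. These genes are mostly neuronal, and 7 of 8 neuronal marker genes fell in the same libraries. Their part in the falls was not tested.

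**Figure D4:**
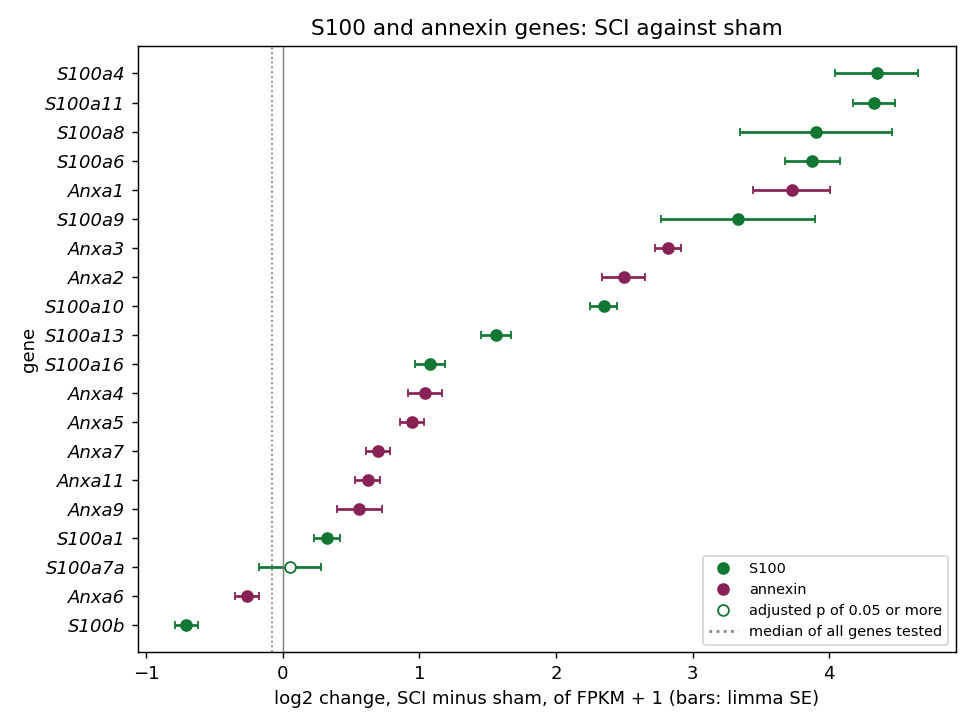
Log2 change (SCI minus sham, on log2 of FPKM + 1) of the 20 S100 (green) and annexin (purple) genes tested, with limma's SE as bars, an open symbol for the gene that did not pass and a dotted line at the median of all genes tested, −0.08. The changes run from −0.71 for S100b to 4.35 for S100a4.

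Among annexins Anxa1 rose most. Anxa1, which mediates part of the anti-inflammatory action of glucocorticoids, measured 2.81, 1.20 and 2.61 FPKM without injury and 33.7, 58.5 and 33.0 FPKM after it. Every injured library was above every sham library, and SCI replicate 2 was the highest. The rise was 18.9-fold, from 2.21 ± 0.878 to 41.7 ± 14.5 FPKM (log2 change 3.73, SE 0.28, limma adjusted p = 7.4e-05). Fpr1 and Fpr2, the formyl peptide receptors through which Anxa1 acts on leukocytes, rose as well, from 1.14 ± 0.299 to 3.93 ± 1.04 and from 1.11 ± 0.272 to 5.18 ± 2.07 FPKM. Their log2 changes were 1.19 and 1.50.

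Anxa3 stood at 8.37, 7.32 and 8.10 FPKM in the sham libraries, against 63.2, 67.0 and 56.0 in the injured ones, a 7.82-fold rise with little spread in either group (log2 change 2.82, SE 0.095, limma adjusted p = 7.8e-06). Anxa4, an annexin of epithelial and secretory cells, had sham values of 6.89, 7.47 and 7.18 and injured values of 13.03, 17.6 and 17.3 FPKM (log2 change 1.04). Anxa5, whose protein binds phosphatidylserine and is used to stain dying cells, measured 164, 176 and 193 FPKM without injury and 329, 363 and 336 FPKM after it, a 1.93-fold rise (log2 change 0.95, SE 0.087, adjusted p = 1.7e-04). It was the most abundant annexin in every library, and its groups did not overlap.

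**Figure D5:**
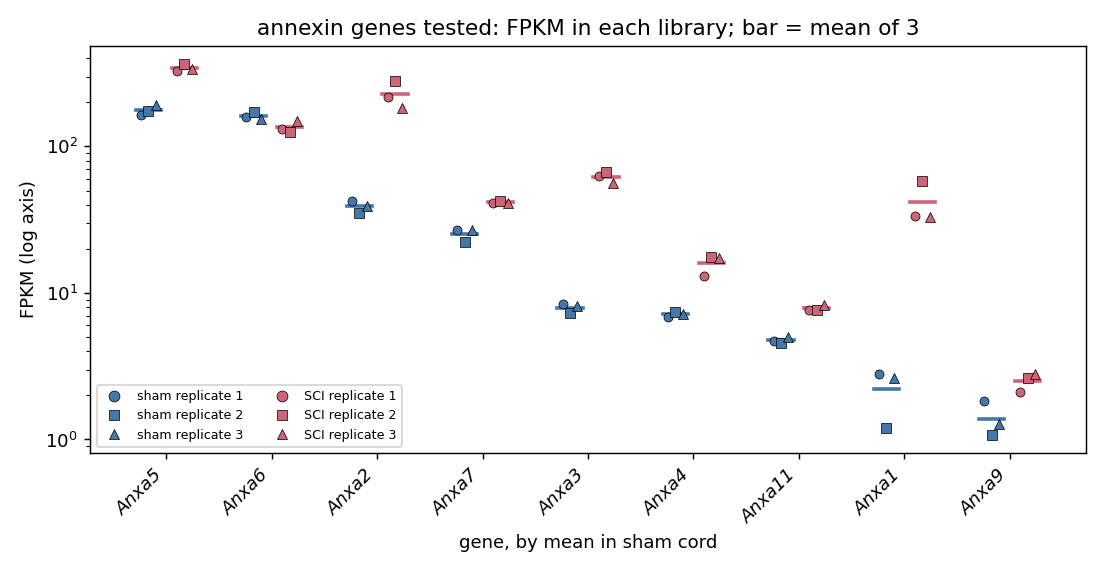
FPKM of the 9 annexin genes tested, on a log axis, in each sham (blue) and SCI (red) library, with a short bar for the mean of 3. Anxa1, Anxa2 and Anxa3 show the widest gaps between the groups, and Anxa6 is the gene whose SCI libraries lie below the sham libraries.

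Smaller rises were found for Anxa7 and Anxa11. Anxa7, or synexin, named for its part in the fusion of secretory granules, stood at 26.7, 22.4 and 26.8 FPKM in the sham libraries, against 41.1, 42.3 and 41.0 in the injured ones (log2 change 0.70, SE 0.090, limma adjusted p = 7.1e-04). Anxa11, which tethers RNA granules to lysosomes in axons, had sham values of 4.71, 4.54 and 5.03 and injured values of 7.61, 7.68 and 8.30 FPKM (log2 change 0.62). Of its 50-base windows 14.6% occur in Gm2260 or Gm2274. Both genes had no overlap between the groups.

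Anxa9 and Anxa6 passed the test narrowly. Anxa9 measured 1.82, 1.08 and 1.27 FPKM without injury and 2.11, 2.62 and 2.80 FPKM after it (log2 change 0.56, limma adjusted p = 0.022), and it overlaps Mindy1, on the other strand, at 13.3 FPKM in sham and 18.6 in SCI on average. Its call ended without sham replicate 2 or 3 or without SCI replicate 2 or 3 (adjusted p from 0.056 to 0.072), with a replicate block (adjusted p = 0.052) and when all low genes were kept in the test (adjusted p = 0.060). Anxa6, the longest annexin, with a duplicated core, stood at 159, 172 and 154 FPKM in the sham libraries, against 132, 126 and 148 in the injured ones (log2 change −0.26, adjusted p = 0.037). Its libraries did not overlap, but SCI replicate 3 and sham replicate 3 were only a few FPKM apart. It no longer passed when 1 library was left out, unless that library was SCI replicate 3 (adjusted p from 0.056 to 0.13), nor with a replicate block (adjusted p = 0.082), when all low genes were kept (adjusted p = 0.063) or under median-ratio scaling (log2 change −0.17, adjusted p = 0.10).

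The members that were too low to test included 2 annexins with higher values in every SCI library. Anxa10 was listed at 0 in all sham libraries and at 0.71, 1.29 and 1.05 FPKM in SCI, and Anxa8 had sham values of 0.59, 0.11 and 0.21 and injured values of 1.62, 0.92 and 3.00 FPKM. Neither gene overlapped between the groups. S100a7l2 was at 1.02 FPKM in SCI replicate 3 and at 0 in the other libraries, S100g at 0 to 0.47 in all, and S100a11-ps and Anxa11os at no more than 0.21. Anxa13, like S100a5, was listed at 0 throughout.

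The place of SCI replicate 2, the library with the most haemoglobin, among the injured libraries was counted in both families. Of the 9 annexins tested, 6 had their highest injured value in SCI replicate 2, beside 25.5% of all genes tested. Of the 11 S100 genes tested, 2 were highest there, S100a8 and S100a9, and 5 were lowest there, beside 56.0% of all genes, shares near those of all genes. The difference between the families was not tested.

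Genes that act with annexins in membrane repair rose in part. Of 10 tested, 7 rose and none fell, while Capn1 (−0.26), Chmp4b (−0.11) and Pdcd6 (0.01) did not pass. Myof, or myoferlin, a membrane fusion protein, went from 1.54 ± 0.270 to 13.7 ± 1.99 FPKM (log2 change 2.53), and Ehd2, a protein of caveolae, from 5.98 ± 0.771 to 30.6 ± 5.13 (2.17). Capns1, the small subunit of calpain and the most abundant of the list, went from 212 ± 2.46 to 294 ± 15.5 (0.47). Of 6 genes whose products bind S100 proteins, 2 rose and 2 fell, beside 26.7% higher and 30.8% lower among all genes tested. The cytoskeletal targets Myh9 and Iqgap1 rose from 14.3 ± 0.346 to 60.6 ± 13.9 FPKM (log2 change 1.98) and from 4.58 ± 0.661 to 25.5 ± 5.90 (2.23). Cacybp, the calcyclin-binding protein named after S100a6, was at 89.4 ± 4.28 and 74.2 ± 3.86 (log2 change −0.27, limma adjusted p = 0.020), a fall that did not pass without sham replicate 2 or 3.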

How the data were processed

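The authors deposited FPKM per gene for each of the 6 libraries, per the file headers. Tools listed by the submitters' processing notes, without roles, are StringTie 1.3.4d, HISAT2 2.0.4, cutadapt 1.9, UMI-tools, edgeR and DESeq2, with the build mm9. Coordinates in the files matched GRCm38 (33485 of 36502 shared identifiers identical to GENCODE M21) and are given on it. Low values showed no steps of whole reads, so depth is unknown and no count model was used.

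Genes reaching 1 FPKM in 3 of 6 libraries (17435) entered limma 3.58.1 (R 4.3.3), fitted as limma-trend on log2(FPKM + 1), a scale that understates changes of low genes. Changes are SCI minus sham. Pairs and sums had exact permutation tests. Alternatives were another pseudocount, other filters, median-ratio scaling, quantile normalization, a replicate block, leaving out each library and, for sums, leaving out the most abundant member.

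Per-library values are given for S100a8, S100a9, S100a10, Anxa2, S100b, Anxa1, tested members that did not pass and passing members averaging 5 FPKM or more. Anxa8, Anxa9 and Anxa10 were added once their values were known. Each pathway list is represented by its 2 strongest passing changes and its most abundant gene, with some further genes picked later; 1 listed gene is not reported here. Members and lists were chosen with earlier results of these data known.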

Additional observations from a re-analysis of the deposited data

How the results depend on the processing

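Of 235 results for single members under alternatives, 214 kept their direction and their side of the threshold. The other 21 belonged to S100a1, S100a7a, Anxa6 and Anxa9. The 9 S100 genes called higher were 8 or 9 when any 1 library was left out, and the 8 annexins 7 or 8. The 1 S100 gene called lower was 1 in each case, while the 1 annexin called lower was 0 or 1. That annexin count was 0 with no filter on low values, 0 under median-ratio scaling and 0 with the replicate block. S100a7a, which did not pass, was at −0.099 under quantile normalization and ran from −0.055 (without sham replicate 2) to 0.26 over left-out libraries. The S100a10 to Anxa2 difference ran from −0.27 to 0.072 over left-out libraries, the latter without SCI replicate 2. Bsg passed under quantile normalization (limma adjusted p = 0.032). With no filter on low values Anxa8 and Anxa10 passed in limma (log2 changes 1.08 and 1.00, adjusted p = 0.037 and 0.0022). Under median-ratio scaling Anxa8 entered the test and passed in limma (log2 change 1.11, adjusted p = 0.012), and 9 annexins were called higher. The replicate numbers did not pair the libraries: the deviations of same-numbered libraries correlated at −0.008, −0.039 and 0.022. A replicate block called 9443 genes in place of 10024. It left 9 S100 genes higher and 1 lower and 7 annexins higher. The number of reads is unknown, so the precision of values near 1 FPKM cannot be stated.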
